A study of Bos taurus with 63 samples.

Results

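*ACTB* (ENSBTAG00000026199), *GAPDH* (ENSBTAG00000014731) and *YWHAZ* (ENSBTAG00000000236) are 3 of the 23010 genes counted in blood leukocytes of German Holstein dams and calves. They were chosen as genes often used for reference in expression studies, by identifier and not by their values. *ACTB* codes for beta-actin, a building block of the cytoskeleton that leukocytes rearrange when they move and engulf particles. *GAPDH* codes for an enzyme of glycolysis. *YWHAZ* codes for the zeta member of a family of adaptor proteins that bind phosphorylated partners in signalling. A reference gene is used to correct a target gene for the amount of RNA in a sample. Its own level therefore has to stay steady between animals and between the conditions compared, and this differs between tissues.

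The study asked how heat stress (HS) of pregnant dams relates to gene expression in the dams and in their female offspring. Control dams (n = 19) and direct HS dams (n = 12) were dry cows sampled shortly before calving, and differed in the weather. Direct HS stood for a daily mean temperature-humidity index (THI) of 60 or more on the day before sampling, so it is a property of the day and not a measured body temperature. Control calves (n = 30) were young female calves labelled as without heat stress. The study defined both direct and maternal HS for calves, and the labels do not say which of them the label of a calf stands for. A calf labelled heat stress (HS-IU_2048) and a dam with no information on its treatment (HS-IU_1804) are single libraries and entered no comparison. All 63 libraries carry the same batch label. The labels give the tissue as whole blood, of which the red cells were lysed before extraction. The cell types could not be checked by their marker genes, because the identifiers of the counts were paired with no gene names here. In such mixed samples, fewer cells of a type and less RNA per cell cannot be told apart.

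Reads on genes ranged from 4340680 to 19584521 per library, with medians of 6782690 in control dams, 7126773 in direct HS dams and 7704226.5 in control calves. Levels are given as CPM (counts scaled to a common library size) after TMM normalization, which scales each library by a factor so that most genes have like levels in all libraries. The TMM factors ranged from 0.951 to 1.12 in control dams, from 0.964 to 1.06 in direct HS dams and from 0.683 to 1.13 in control calves. Within the 3 groups, the 5 factors below 0.9 belonged to control calves (HS-IU_2015, HS-IU_2010, HS-IU_2038, HS-IU_2052 and HS-IU_2008), and the fold changes and spread of the 3 genes in calves are also given without them. CPM are not corrected for transcript length, so levels are compared between groups and not between the genes.

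*ACTB* was at 8239 ± 705 CPM (SD, n = 19) in control dams, with a lowest value of 6782, a median of 8265 and a highest value of 9329. In direct HS dams it was at 8519 ± 1017 CPM (SD, n = 12), with a lowest value of 6589, a median of 8640 and a highest value of 10485. These ranges overlapped almost completely, and 2 of the 12 direct HS dams were above the highest control dam. In control calves *ACTB* was at 10556 ± 2031 CPM (SD, n = 30), with a lowest value of 7918, a median of 10293 and a highest value of 15734. The calves were shifted upwards as a group, with 27 of 30 above the median of the control dams and 20 of 30 above the highest control dam. Reads of *ACTB* made up a median of 0.858% of all reads on genes in control dams, 0.859% in direct HS dams and 1.01% in control calves. By this share, 26 of 30 calves were above the median of the control dams and 13 of 30 above the highest control dam. The highest calves were HS-IU_2052 and HS-IU_2008, at 15734 and 15200 CPM, and both had a TMM factor below 0.9.

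*GAPDH* was at 988 ± 203 CPM (SD, n = 19) in control dams, with a lowest value of 763, a median of 945 and a highest value of 1602. The highest value came from HS-IU_1622, in which *ACTB* (8291 CPM) and *YWHAZ* (106 CPM) were close to the medians of the group. In direct HS dams *GAPDH* was at 1062 ± 134 CPM (SD, n = 12), with a lowest value of 860, a median of 1030.0 and a highest value of 1366. No direct HS dam was above the highest control dam, while 11 of 12 were above the control median (8 of 12 by the share of reads). In control calves it was at 1293 ± 294 CPM (SD, n = 30), with a lowest value of 866, a median of 1216 and a highest value of 2079. Of the calves, 28 of 30 were above the median of the control dams, but 4 of 30 were above the highest control dam. By the share of reads these were 26 and 3 of 30. The counts above the highest control dam rest on HS-IU_1622, since the next control dam was HS-IU_1467 at 1321 CPM.

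*YWHAZ* was at 106 ± 14.2 CPM (SD, n = 19) in control dams, with a lowest value of 69.3, a median of 108 and a highest value of 124. In direct HS dams it was at 113 ± 15.7 CPM (SD, n = 12), with a lowest value of 85.1, a median of 116 and a highest value of 141. In control calves it was at 109.9 ± 19.3 CPM (SD, n = 30), with a lowest value of 68.3, a median of 111 and a highest value of 149. The ranges overlapped widely, with 17 of 30 calves above the median of the control dams. Above the highest control dam were 7 of 30 calves and 2 of 12 direct HS dams. By the share of reads, 12 of 30 calves were above the median of the control dams and 3 of 30 above the highest, with 0 of 12 direct HS dams above it. The counts above the highest control dam depend on HS-IU_1828, since the next control dam was HS-IU_1439 at 120 CPM. The lowest control dam was HS-IU_1467, in which *GAPDH* was high (1321 CPM) and *ACTB* was close to its median (8240 CPM).

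**Figure D1:**
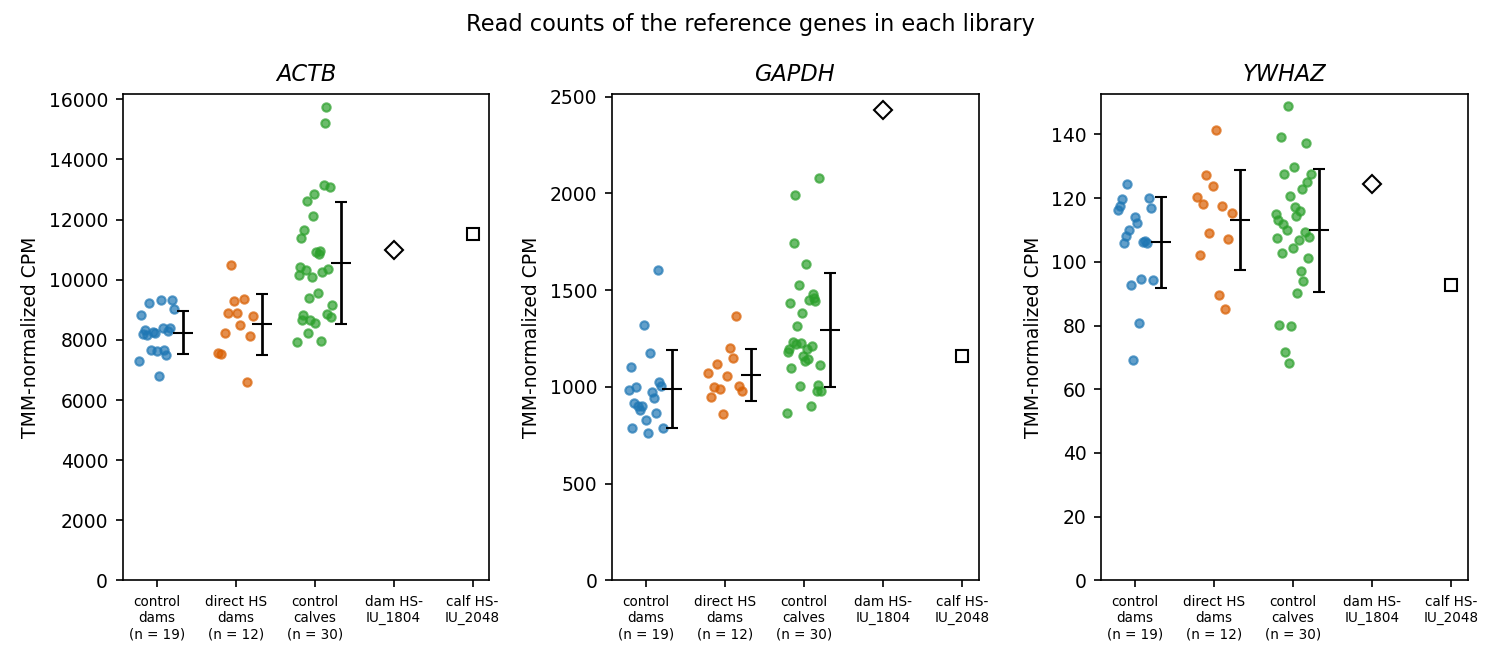
Levels of *ACTB*, *GAPDH* and *YWHAZ* in TMM-normalized CPM (vertical axes) for each library of control dams (n = 19), direct HS dams (n = 12) and control calves (n = 30). Points are libraries, and the bars beside them give the mean and SD. The calves lie higher for *ACTB* (mean 10556 against 8239 CPM in control dams) and *GAPDH* (1293 against 988 CPM) and overlap with the dams for *YWHAZ* (109.9 against 106 CPM).

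The comparison of direct HS dams with control dams asked whether the genes held their level under heat. Of the 3 genes, 0 passed the test at an adjusted p below 0.05 (edgeR's quasi-likelihood test, adjusted by Benjamini-Hochberg over 11645 genes), where 2.66% of all genes did (0.764% higher, 1.90% lower, and 0.395% with an absolute log2 fold change above 0.58). The count was also 0 at an unadjusted p below 0.05, and 0 with DESeq2 and limma-voom. The log2 fold change of *ACTB* was 0.04 (SE 0.06, 95% interval -0.07 to 0.16, edgeR adjusted p = 0.732). That of *GAPDH* was 0.10 (SE 0.09, 95% interval -0.08 to 0.29, edgeR adjusted p = 0.577), and that of *YWHAZ* was 0.09 (SE 0.07, 95% interval -0.06 to 0.24, edgeR adjusted p = 0.544). All intervals included 0, with upper ends of 0.16, 0.29 and 0.24 on the log2 scale. Without the control dam HS-IU_1622, the change of *GAPDH* was 0.17 (95% interval 0.01 to 0.32, edgeR adjusted p = 0.219, unadjusted p = 0.0361), so that its interval lay above 0 while the adjusted p did not pass. The change of *ACTB* was 0.02 without HS-IU_1830 and 0.08 without HS-IU_1837. Sorted by the size of the log2 fold change, 19.8% of all tested genes had a smaller one than *ACTB*, 42.6% than *GAPDH* and 38.0% than *YWHAZ*. Among their neighbours of like expression (the 200 genes nearest by mean CPM), these shares were 20%, 48% and 46.5%. They depended on single libraries, with 61.5% for *GAPDH* without HS-IU_1622, 6.74% for *ACTB* without HS-IU_1830, and 36.5% for *ACTB* and 53.4% for *YWHAZ* without HS-IU_1837, over all tested genes.

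The comparison of control calves with control dams asked whether the genes held their level between age classes. *ACTB* and *GAPDH* were higher in calves, and *YWHAZ* did not pass the test. This makes 2 of 3 genes called, at a background of 39.7% of 11762 genes called in either direction and 22.3% called higher. With an absolute log2 fold change above 0.58, 0 of the 3 genes and 15.8% of all genes were called by edgeR, while 2 of the 3 were past an unadjusted p of 0.05. The log2 fold change of *ACTB* was 0.36 (SE 0.07, 95% interval 0.21 to 0.50, edgeR adjusted p = 7.06e-05), at a ratio of the mean CPM of 1.28. That of *GAPDH* was 0.39 (SE 0.09, 95% interval 0.21 to 0.58, edgeR adjusted p = 0.000633), at a ratio of 1.31. That of *YWHAZ* was 0.05 (SE 0.07, 95% interval -0.09 to 0.19, edgeR adjusted p = 0.595), at a ratio of 1.04, and was 0.02 without the control dam HS-IU_1467 and 0.03 without HS-IU_1725. Among all tested genes, 71.0% had a smaller change than *ACTB*, 73.4% than *GAPDH* and 15.2% than *YWHAZ*. The share for *YWHAZ* was 7.17% without HS-IU_1467 and 9.63% without HS-IU_1725. Direct HS dams were not tested against calves.

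The rise of *ACTB* and *GAPDH* remained without the 5 calves of low TMM factor, at log2 fold changes of 0.28 (SE 0.06, edgeR adjusted p = 0.00041) and 0.30 (SE 0.08, edgeR adjusted p = 0.00396). In this fit 4218 genes were called, 2216 higher and 2002 lower. All 5 calves of low TMM factor were above the highest control dam for *ACTB*, 2 were for *GAPDH* and 1 was for *YWHAZ*. By the share of reads this did not hold for *ACTB* in 2 of them, since HS-IU_2015 was below all 19 control dams (0.740% of reads) and HS-IU_2038 was above 9 of 19 (0.848%). For *YWHAZ*, none of the 5 was above the highest control dam by this share. With libraries scaled by their total reads alone, the changes were 0.24 for *ACTB* (edgeR adjusted p = 0.00155) and 0.28 for *GAPDH* (edgeR adjusted p = 0.00281). *YWHAZ* then changed sign, at -0.05 (edgeR adjusted p = 0.656). The part of the TMM factors in the higher levels of the calves was not tested further.

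**Figure D2:**
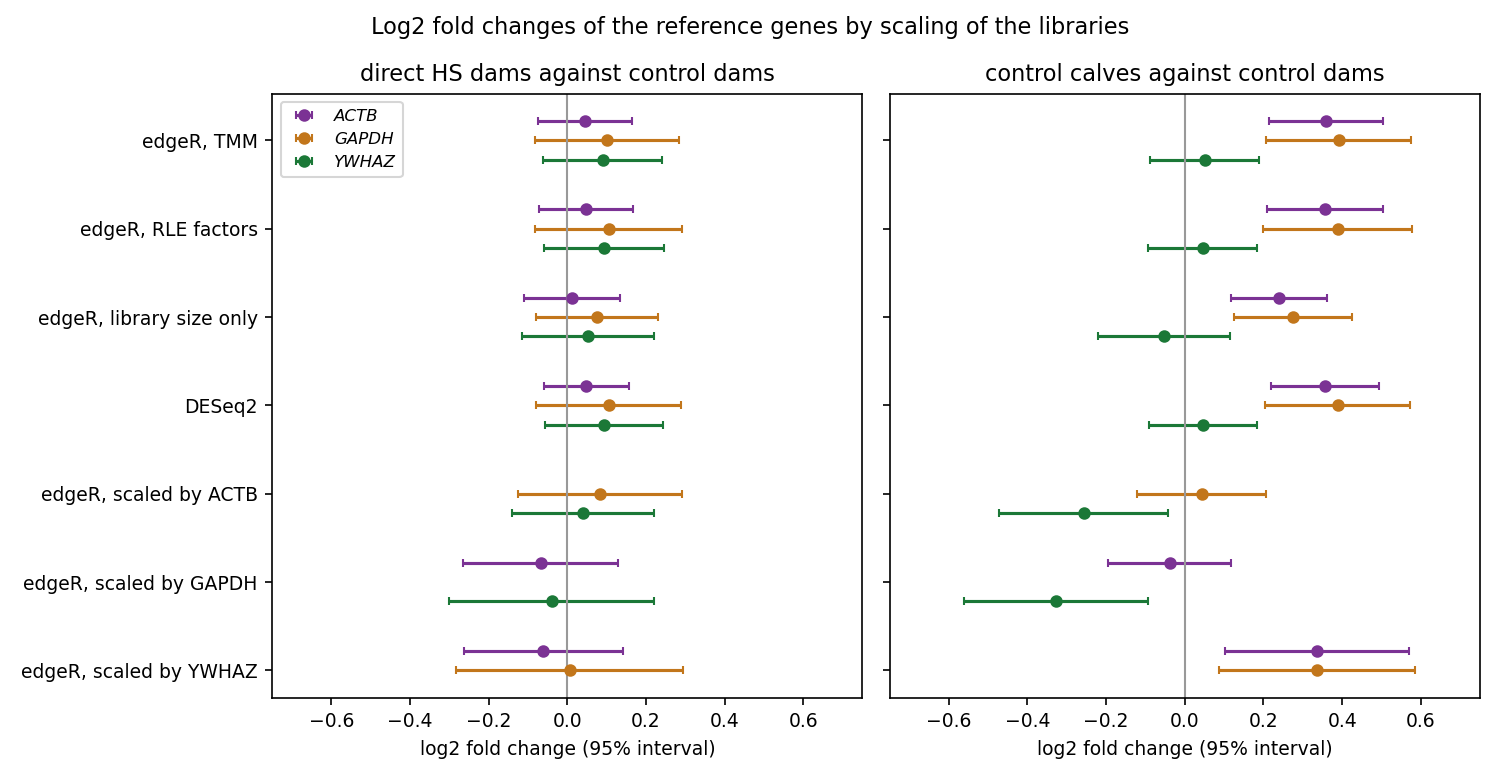
Log2 fold changes of *ACTB*, *GAPDH* and *YWHAZ* with their 95% intervals, in direct HS dams and in control calves, each against control dams. Rows are edgeR with TMM, RLE factors or total reads, DESeq2, and edgeR scaled by each of the other reference genes. The intervals include 0 for all 3 genes under direct HS in every row. With TMM, they lie above 0 for *ACTB* (0.36) and *GAPDH* (0.39) in calves. In calves, *ACTB* scaled by *GAPDH* (-0.20 to 0.12) and *GAPDH* scaled by *ACTB* (-0.12 to 0.21) include 0. *YWHAZ* scaled by *ACTB* or *GAPDH* lies below 0 there.

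Many genes of like expression were also called in calves. For each of the 3 genes, these were the 200 genes nearest to it by mean CPM. Because *ACTB* and *GAPDH* are among the most abundant transcripts, their 200 genes were almost the same and reached down to 633 CPM in control dams. The genes nearest to *ACTB* were therefore mostly much lower than *ACTB* itself, with 5 or 6 genes within 2-fold of it in each group. Of the 200 genes near *ACTB*, 93 were called in calves against control dams, 79 of them higher, and their median log2 fold change was 0.19. Of the 200 genes near *YWHAZ*, 97 were called in calves, 60 of them higher, at a median of 0.03. Under direct HS, 4 of the 200 genes near *ACTB* and 5 of those near *YWHAZ* were called. Among these neighbours, 63.5% had a smaller change in calves than *ACTB*, 69% than *GAPDH* and 19% than *YWHAZ*.

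Stability within a group was measured by the coefficient of variation (CV), the SD as a percentage of the mean CPM. A rank of 1 of 201 stands for the steadiest gene among a gene and its 200 neighbours. These ranks are descriptions without a test. In control dams *ACTB* was the steadiest of the 3, with a CV of 8.56% and rank 3 of 201, where the neighbours had a median CV of 19.3%. *YWHAZ* followed with a CV of 13.4% and rank 55 (median of its neighbours 16.3%). The neighbours steadier than *YWHAZ* were 27% by the CV, 41% by the SD of log2 CPM, 39.5% with libraries scaled by total reads and 33% by the median absolute deviation. By the median absolute deviation over the median, 24.5% of the neighbours were steadier than *ACTB* in place of 1%, and the 3 genes were then closer together, at 11.1% for *ACTB*, 12.1% for *GAPDH* and 12.4% for *YWHAZ*. *GAPDH* had a CV of 20.5% and rank 121, where its neighbours had a median CV of 19.2%. The place of *GAPDH* depended on the measure, since 60% of the neighbours were steadier by the CV, 49.5% by the SD of log2 CPM, 39% by the CV with libraries scaled by total reads and 33.5% by the median absolute deviation. It also rested on 1 library, since without HS-IU_1622 the CV was 14.9%, with 27.5% of the neighbours steadier. Without HS-IU_1467, the CV of *YWHAZ* was 10.5%, with 14% of its neighbours steadier in place of 27%.

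The 3 genes were closer together in direct HS dams. The CV was 11.9% for *ACTB* (rank 47), 12.6% for *GAPDH* (rank 60) and 13.9% for *YWHAZ* (rank 71), where the medians of the neighbours were 16.8%, 16.8% and 16.2%. HS-IU_1837 was the lowest of the 12 direct HS dams for *ACTB* and *YWHAZ* (6589 and 85.1 CPM) and the highest for *GAPDH* (1366 CPM). Without it, the CV was 9.84% for *ACTB*, 9.45% for *GAPDH* and 11.8% for *YWHAZ*, and 15% of the neighbours of *GAPDH* were steadier in place of 29.5%. Without HS-IU_1830, the highest dam for *ACTB*, 11% of the neighbours of *ACTB* were steadier in place of 23%.

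In control calves the CVs of the 3 genes and the medians of their neighbours were higher than in control dams. The CV was 19.2% for *ACTB* (rank 49), 22.7% for *GAPDH* (rank 73) and 17.5% for *YWHAZ* (rank 70), where the medians of the neighbours were 27.1%, 27.1% and 21.99%. Without the 5 calves of low TMM factor, the CV was 15.5% for *ACTB*, 18.3% for *GAPDH* and 18.1% for *YWHAZ*, with 17%, 33% and 48% of their neighbours steadier. The CV of *GAPDH* was then below that in control dams (20.5%), but above that in control dams without HS-IU_1622 (14.9%). Over all 61 libraries of the 3 groups, *YWHAZ* had the lowest CV of the 3 genes (15.6%), followed by *ACTB* (20.1%) and *GAPDH* (24.1%). These values over all libraries hold the difference in *ACTB* and *GAPDH* between calves and dams as well as the spread within groups. Within calves, *ACTB* had a lower CV than *YWHAZ* with libraries scaled by total reads (15.1% against 20.9%) and without the 5 calves of low TMM factor, and a higher one with TMM. Counting error was a small part of these values, since reads drawn at random would give a CV of 0.35% to 0.42% for *ACTB*, 0.99% to 1.202% for *GAPDH* and 3.40% to 3.67% for *YWHAZ* in the 3 groups.

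**Figure D3:**
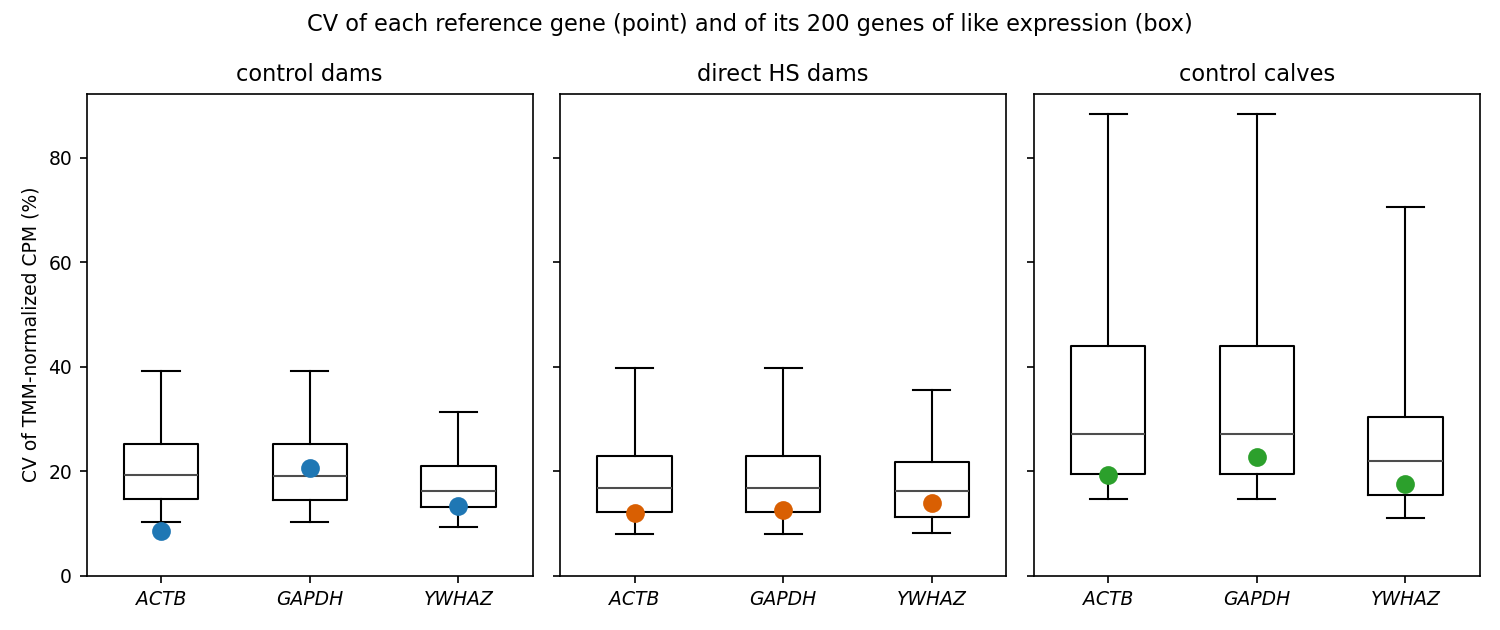
CV of TMM-normalized CPM in percent (vertical axis) of each reference gene (points) beside its 200 genes of like expression, in control dams, direct HS dams and control calves. Boxes give the quartiles and median of the 200 genes, and whiskers the 5th and 95th percentiles. *ACTB* lies below the lower whisker in control dams (8.56%), and *GAPDH* lies above the median of its box there (20.5% against 19.2%).

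Differences in spread between groups were tested on the absolute deviations of log2 CPM from the group mean, with limma across all genes, a test chosen after the data were seen. The SD of log2 CPM of *ACTB* was 0.26 in control calves and 0.12 in control dams, a ratio higher than that of 95.5% of the tested genes. This difference in spread did not pass the adjustment (limma adjusted p = 0.130, unadjusted p = 0.00571), where 0.578% of 11762 genes did. Over all genes, the median SD was 0.39 in calves and 0.31 in control dams. Without the 5 calves of low TMM factor, the SD in calves was 0.22 for *ACTB* (limma adjusted p = 0.205), 0.26 for *GAPDH* (limma adjusted p = 0.972) and 0.28 for *YWHAZ* (limma adjusted p = 0.752). With all calves, the SDs for *GAPDH* were 0.31 and 0.27 (limma adjusted p = 0.645), and for *YWHAZ* 0.27 and 0.21 (limma adjusted p = 0.673). For direct HS against control dams, 0 genes passed with limma (657 at an unadjusted p below 0.05), and the adjusted p of the 3 genes ranged from 0.945 to 0.997.

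The ratio of 2 genes within a library depends on neither library size nor TMM. The log2 ratio of *GAPDH* to *ACTB* reads was -3.08 ± 0.25 (SD, n = 19) in control dams, -3.005 ± 0.30 (SD, n = 12) in direct HS dams and -3.04 ± 0.26 (SD, n = 30) in control calves. This ratio stayed close in all groups, and its highest values came from HS-IU_1837 (-2.27), HS-IU_1622 (-2.37) and the calf HS-IU_2038 (-2.37). The log2 ratio of *YWHAZ* to *ACTB* was -6.29 ± 0.27 in control dams, -6.24 ± 0.19 in direct HS dams and -6.58 ± 0.43 in control calves. In other terms, the median library had 74.9, 75.4 and 92.7 reads of *ACTB* for each read of *YWHAZ*. The log2 ratio of *GAPDH* to *YWHAZ* was 3.21 ± 0.40, 3.24 ± 0.33 and 3.55 ± 0.42 in the 3 groups, at medians of 8.58, 8.99 and 11.98 reads of *GAPDH* for each read of *YWHAZ*.

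To test the ratios, libraries were scaled by the count of 1 gene and the change of the other was read from the edgeR fit across all genes. In calves against control dams, *GAPDH* scaled by *ACTB* differed by 0.04 on the log2 scale (SE 0.08, 95% interval -0.12 to 0.21, edgeR adjusted p = 0.660). *YWHAZ* scaled by *ACTB* was lower in calves, at -0.26 (SE 0.11, 95% interval -0.47 to -0.04, edgeR adjusted p = 0.0360). *GAPDH* scaled by *YWHAZ* was higher in calves, at 0.34 (SE 0.12, 95% interval 0.09 to 0.58, edgeR adjusted p = 0.0349). Swapping the genes of a ratio gave the same calls, with 0.34 for *ACTB* scaled by *YWHAZ* (edgeR adjusted p = 0.0241) and -0.33 for *YWHAZ* scaled by *GAPDH* (edgeR adjusted p = 0.0145). Calls were common in these scalings, with 6287 of 11762 genes called lower when scaled by *ACTB* and 6614 when scaled by *GAPDH*. Scaled by *YWHAZ*, 1565 genes were called higher and 1792 lower. Between direct HS and control dams none of the 3 ratios passed, with log2 differences of 0.08 for *GAPDH* scaled by *ACTB* (95% interval -0.13 to 0.29), 0.04 for *YWHAZ* scaled by *ACTB* (95% interval -0.14 to 0.22) and 0.01 for *GAPDH* scaled by *YWHAZ* (95% interval -0.28 to 0.30).

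**Figure D4:**
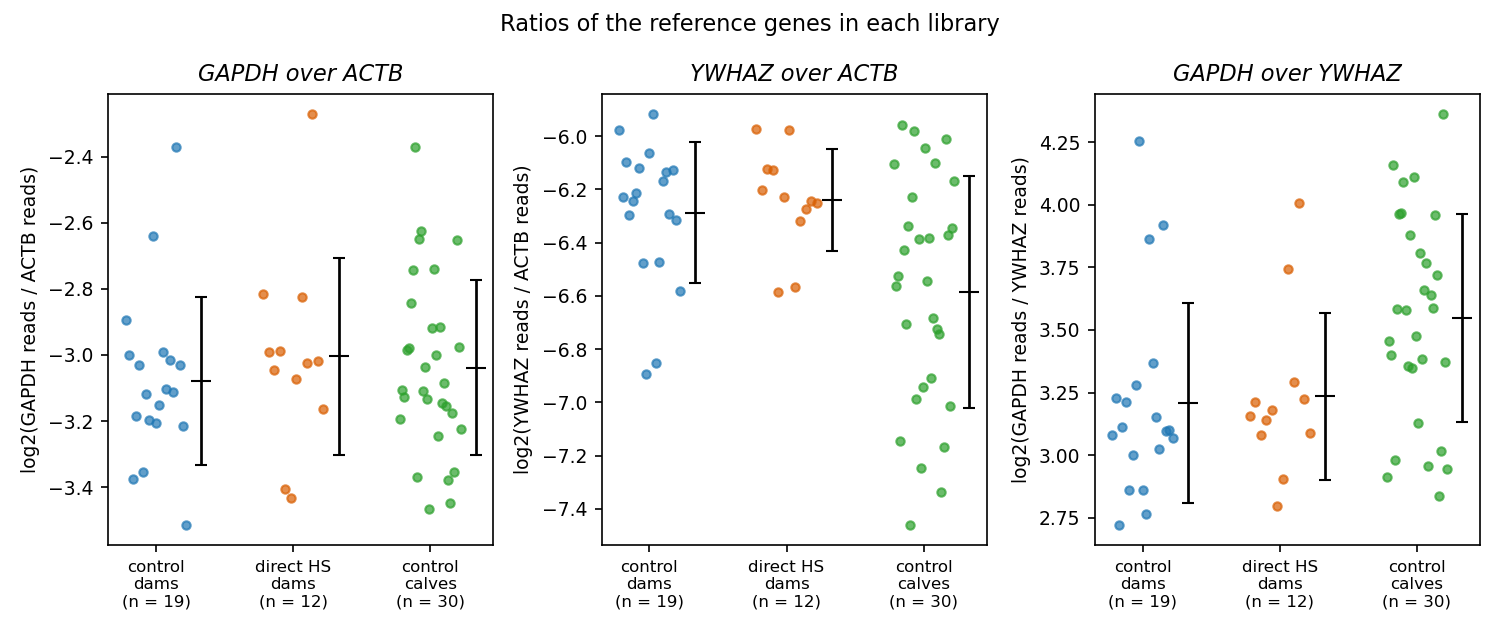
Log2 ratios of the reads of each pair of reference genes (vertical axes) in each library of control dams (n = 19), direct HS dams (n = 12) and control calves (n = 30), with the mean and SD beside the points. *GAPDH* over *ACTB* has like means in the 3 groups (-3.08, -3.005 and -3.04), while *YWHAZ* over *ACTB* is lower in calves (-6.58 against -6.29 in control dams).

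Scaling by a reference gene takes the difference of that gene between the groups from all genes alike. The median shifts given here therefore mostly restate the fold changes above for the whole table and are no separate result. Scaling also carries the spread of that gene between libraries into all genes, so call counts do not follow from fold changes alone. In calves against control dams, TMM gave 4664 called genes, of which 2621 were higher and 2043 lower, at a median log2 fold change over all genes of 0.03. Scaled by *ACTB*, there were 7016 called genes, of which 729 were higher and 6287 lower, and the median over all genes was -0.29. Scaled by *GAPDH*, 630 were higher and 6614 lower, at a median of -0.33. Scaled by *YWHAZ*, 1565 were higher and 1792 lower, and the median stayed at -0.0018. The geometric mean of the 3 genes gave 928 higher and 5301 lower, at a median of -0.21. With libraries scaled by their total reads, 1569 genes were higher and 2812 lower, so that 35.8% of the called genes were higher, in place of 56.2% with TMM.

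In direct HS dams against control dams, TMM gave 89 genes higher and 221 lower. These counts rested on single dams. With 1 dam left out, the genes called higher ranged from 37 (without HS-IU_1460) to 212 (without HS-IU_1568), and the lower ones from 93 when HS-IU_1516 was left out to 387 when HS-IU_1568 was, at 21.5% to 41.6% higher among the called genes. Scaled by *ACTB* it was 15 and 164, scaled by *GAPDH* 6 and 116, scaled by *YWHAZ* 9 and 540, and scaled by the geometric mean 28 and 755. The medians of the log2 fold change over all genes were -0.04, -0.13, -0.10 and -0.08 in this order, and -0.0022 with TMM. Each of the 4 scalings moved the balance towards lower calls. The 3 genes had positive log2 fold changes with TMM, none of which passed the test. Fewer genes than with TMM were called lower when scaled by *ACTB* or *GAPDH*, and more with *YWHAZ* or the geometric mean. The parts of the shift and of the spread of the reference genes in these counts were not tested. With total reads, 15.5% of the called genes were higher, in place of 28.7% with TMM.

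**Figure D5:**
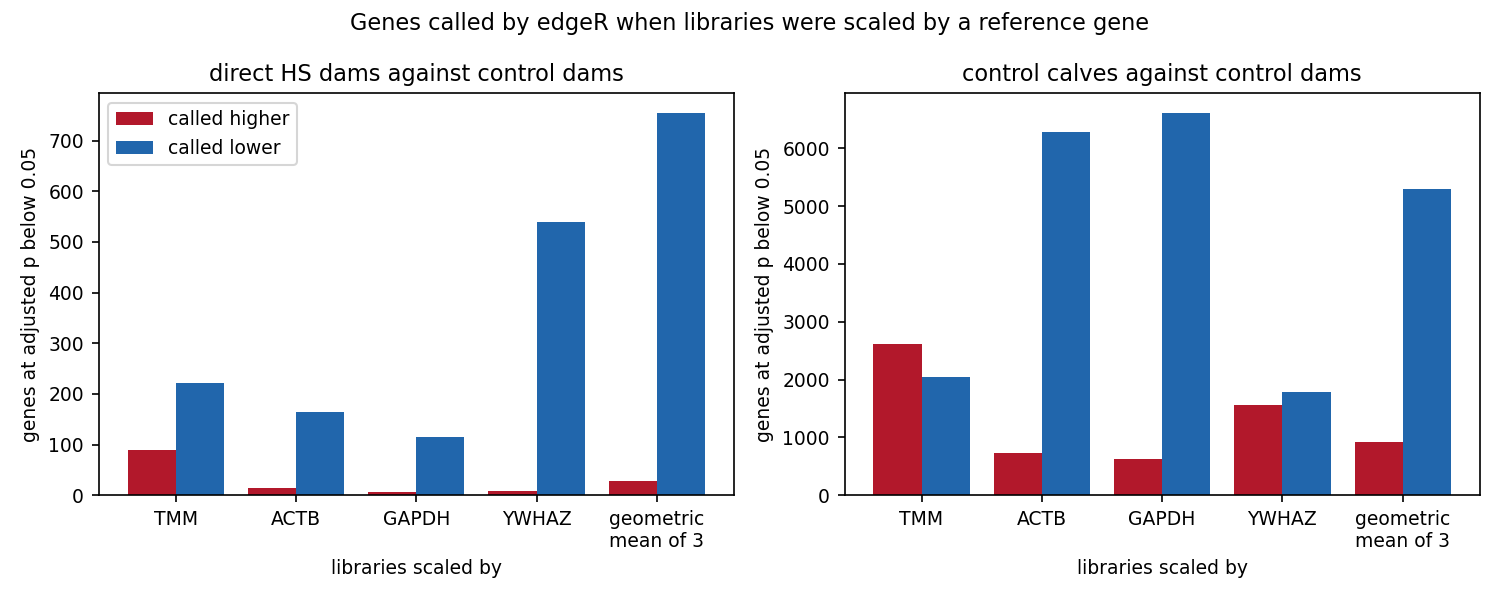
Number of genes called higher (red) and lower (blue) at an adjusted p below 0.05 by edgeR (vertical axes), with libraries scaled by TMM, by each reference gene or by the geometric mean of the 3. In calves against control dams, *ACTB* and *GAPDH* gave 6287 and 6614 genes called lower, against 2043 with TMM and 1792 with *YWHAZ*.

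The correlations between the 3 genes from library to library varied between groups and rested in part on single libraries. Over the 3 groups, the mean Pearson correlation of log2 CPM was 0.15 between *ACTB* and *GAPDH*, 0.0042 between *ACTB* and *YWHAZ* and -0.31 between *GAPDH* and *YWHAZ* (Spearman 0.29, 0.01 and -0.18). The first of these was 0.32 in control dams, -0.45 in direct HS dams and 0.59 in control calves. The value for *ACTB* and *YWHAZ* was -0.17 in control dams, 0.51 in direct HS dams and -0.32 in control calves. *GAPDH* and *YWHAZ* had negative values in each group, at -0.39, -0.51 and -0.03. The values in direct HS dams rested on HS-IU_1837, and without it they were -0.03 for *ACTB* and *GAPDH*, 0.20 for *ACTB* and *YWHAZ* and -0.18 for *GAPDH* and *YWHAZ*. In control dams, *ACTB* and *GAPDH* were at 0.18 without HS-IU_1662, *ACTB* and *YWHAZ* at -0.29 without HS-IU_1828 and -0.02 without HS-IU_1725, and *GAPDH* and *YWHAZ* at -0.17 without HS-IU_1467. In control calves, *GAPDH* and *YWHAZ* ranged from -0.14 (without HS-IU_2019) to 0.03 (without HS-IU_2018). Leaving out libraries here was chosen after seeing the data. With libraries scaled by total reads, the mean for *ACTB* and *GAPDH* turned to -0.06. That for *ACTB* and *YWHAZ* was 0.11, and that for *GAPDH* and *YWHAZ* was -0.38. These values describe 19, 12 and 30 libraries, which share a common normalization.

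Among 11753 other genes, the 2 most like *GAPDH* were ENSBTAG00000001601 (mean within-group Pearson correlation 0.89) and ENSBTAG00000012927 (0.85), and both were also the closest by Spearman correlation. They were higher in calves than in control dams, like *GAPDH*, at log2 fold changes of 0.57 (edgeR adjusted p = 9.77e-05) and 0.40 (edgeR adjusted p = 0.00161). The gene most like *ACTB* was ENSBTAG00000046332 (0.67), a gene of low expression at 4.45 CPM. The gene most like *YWHAZ* was ENSBTAG00000014041 (0.79), which was only at place 56 by Spearman correlation.

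The steadiest neighbour was sought among genes that were neighbours in all 3 groups, which were 164 genes for *ACTB* and *GAPDH* and 21 for *YWHAZ*. It was ENSBTAG00000008853 for both *ACTB* and *GAPDH*, with CVs of 6.997% in control dams, 3.61% in direct HS dams and 7.96% in control calves. Its mean level was 699, 751 and 745 CPM, and its log2 fold change was 0.10 under direct HS (edgeR adjusted p = 0.209) and 0.09 in calves (edgeR adjusted p = 0.0609). For *YWHAZ* it was ENSBTAG00000003789, with 3.48% of the neighbours steadier in control dams, CVs of 8.99%, 5.27% and 8.65% and log2 fold changes of -0.03 (edgeR adjusted p = 0.819) and -0.07 (edgeR adjusted p = 0.119). In each group, the CVs of these genes were lower than those of the reference genes beside them. Both genes were picked for their low CV, so their steadiness in these libraries is a description of the choice.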

How the data were processed

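Blood leukocytes were obtained by lysis of red cells, and their polyadenylated RNA was sequenced from a single end of each fragment. The values the authors deposited are raw counts, not normalized, for every gene in every library. Per the submitters' processing notes and the methods of the study, reads were trimmed with cutadapt 4.2, checked with FastQC 0.12.1 and aligned by STAR 2.7.11a, which also counted the reads of each gene, against the ARS-UCD1.2 assembly. The strand column is not given in the sources used here. Reads of *ACTB* and *GAPDH* can be shared with near-identical copies (other actins, processed pseudogenes), so their counts are uncertain to that extent.

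Groups were taken from the labels. The members and lists were chosen with earlier results of these data known. Genes whose mean count reached 14 in the libraries compared were tested with edgeR 4.0.16 in R 4.3.3 (quasi-likelihood test, TMM, Benjamini-Hochberg over all tested genes, two-sided, no covariates, since those of the study are not in the labels). DESeq2 1.42.0 and limma 3.58.1 (limma-voom) were alternatives, beside RLE factors, library size only, no filter on low counts, robust dispersions, library size as a covariate, scaling by the reference genes and each library left out in turn. The fit was tested on simulated counts with 200 changed genes (log2 change of 1), of which 189 were found with 11 false calls among 11645 genes for direct HS, and 191 with 10 false calls among 11762 for calves. CVs used common TMM factors over 61 libraries and 11754 genes, and a prior count of 2 was added for log2 CPM. The labels do not state that each library is a separate animal and link no calf to a dam, so p-values measure the spread between these libraries. The 2 most similar libraries differed by more than counting error (mean chi-square of 8.62 per gene).

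Genes named by rule were the 3 members, for each member the 2 genes with the highest mean within-group correlation and the steadiest of its 200 neighbours, with at most 6 identifiers outside the members. For this limit the second gene most like *ACTB* and *YWHAZ* is not named. The annotation used paired 0 of the 23010 identifiers with a gene name, so the lists of other reference genes, actin partners, glycolysis, related adaptor proteins and leukocyte markers could not be matched and are not used here, and no coordinates or sequences are given. Figures were drawn with matplotlib 3.10.9.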

Additional observations from a re-analysis of the deposited data

Results flagged for a closer look

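The dam HS-IU_1804, whose treatment the labels do not give, entered no comparison and had TMM-normalized levels of *ACTB* and *GAPDH* above those of the control dams. *ACTB* was at 10979.2 CPM, above all 19 control dams (highest 9329 CPM) and all 12 direct HS dams (highest 10485 CPM), and above 21 of 30 control calves. *GAPDH* was at 2432.8 CPM, above all 61 libraries of the 3 groups, of which the highest was a control calf at 2079 CPM. The study left this library out of its comparison of dams because it grouped with the calves. The TMM factor of this library was 0.779. As a share of reads, *ACTB* was at 0.856%, above 9 of 19 control dams and close to their median of 0.858%, so it stood out with TMM alone. *GAPDH* was at 0.190% of reads, above all 19 control dams and all 30 control calves also on this scale.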

How the results depend on the processing

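Leaving out 1 library each, in 31 fits for direct HS and 49 for calves, changed neither the direction nor the call at an adjusted p below 0.05 of the log2 fold changes of *ACTB*, *GAPDH* or *YWHAZ*. With another normalization, tool, filter, dispersion or covariate, only *YWHAZ* in calves changed sign, at -0.0525 with total reads. Scaled by reference genes, *ACTB* under direct HS was at -0.0681 (by *GAPDH*), -0.0611 (by *YWHAZ*) and -0.0401 (by the geometric mean), and *YWHAZ* at -0.0398 (by *GAPDH*). In calves, *ACTB* was at -0.0387 (by *GAPDH*) and 0.0941 (by the geometric mean, edgeR adjusted p = 0.155), *GAPDH* at 0.0426 (by *ACTB*, edgeR adjusted p = 0.660) and 0.12 (by the geometric mean, edgeR adjusted p = 0.0882), and *YWHAZ* at -0.26 (by *ACTB*), -0.33 (by *GAPDH*) and -0.20 (by the geometric mean). A gene in its own scaling is part of the scale by construction. The 310 calls under direct HS became 136 without the filter, 503 with DESeq2, 179, 122 and 549 scaled by *ACTB*, *GAPDH* and *YWHAZ*, and 783 by the geometric mean. Leaving out 1 dam gave 130 (without HS-IU_1516) to 599 calls (without HS-IU_1568), and 13 of 31 dams moved the count by more than 1.5 times. These were also HS-IU_1460 (167), HS-IU_1721 (165), HS-IU_1800 (183), HS-IU_1837 (189) and HS-IU_1863 (196) of the direct HS dams, and HS-IU_1439 (204), HS-IU_1662 (197), HS-IU_1727 (198), HS-IU_1808 (201), HS-IU_1811 (191) and HS-IU_1817 (206) of the control dams. The 4664 calls in calves became 7016 and 7244 scaled by *ACTB* and *GAPDH*, and 4435 to 4732 with 1 library left out.

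The share of neighbours steadier than *ACTB* moved from 1% to 5.5% with total reads and 24.5% with the median absolute deviation in control dams. In direct HS dams it moved from 23% to 0% among the 5 genes within 2-fold of its level. In calves it moved from 24% to 8% with total reads and to 0% of the 6 genes within 2-fold. That of *GAPDH* moved there from 36% to 14.5% with total reads and 48% with the median absolute deviation. With total reads, the CV in calves was 15.1% for *ACTB*, 17.8% for *GAPDH* and 20.9% for *YWHAZ*, and without the 5 calves of low TMM factor, an alternative chosen after seeing the data, 15.5% for *ACTB* and 18.3% for *GAPDH*. The causes were not tested. Leaving out 1 library, the share for *ACTB* ranged from 1% to 3% in control dams. No paired analysis was possible because the labels link no dam to a calf and give no shared replicate numbers. Reads of *YWHAZ* numbered 377 to 2790 per library.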

Other observations

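In HS-IU_1804, *YWHAZ* was at 124 CPM, above 18 of 19 control dams and 23 of 30 control calves. As a share of reads (0.00969%), it was above 2 of 19 control dams and 9 of 30 control calves, so its place turned with the scaling. In the calf labelled heat stress, HS-IU_2048, *ACTB* was at 11530.0 CPM, above all 31 dams of both groups and 22 of 30 control calves. *GAPDH* was at 1162 CPM there, above 11 of 30 control calves, and *YWHAZ* was at 92.6 CPM, above 5 of 30. As shares of reads, *ACTB*, *GAPDH* and *YWHAZ* were above 26, 11 and 8 of 30 control calves there. With 1 such calf, no comparison was made.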
